A study of Homo sapiens with 30 samples.

Results

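Pladienolide B (PB), a natural-product inhibitor of the spliceosome, was set against its solvent DMSO in 3 monoclonal lines of eHAP FNLS cells carrying the E554K substitution in SUGP1. The comparison used 6 of the 30 RNA-seq libraries of the series, chosen by their labels: 3 of SUGP1 E554K cells given 2 nM PB for 3 h and 3 of SUGP1 E554K cells given DMSO for 3 h. Each line gave 1 library under each treatment, and libraries were paired by line. Line 1 is clone A08_2.11, line 2 is clone A08_2.16 and line 3 is clone A08_A03, and all carried the guide RNA SUGP1_238. The other genotypes, each with 3 PB and 3 DMSO libraries at the same dose and time, were SUGP1 G603N, PHF5A 2xTL (a 6-nt insertion at T40-L41) and SF3B1 T1080I, each as 3 monoclonal lines, and control cells with a non-targeting guide RNA. Control libraries are replicates of a single line, so their spread lies between cultures, and that of the edited genotypes lies between clones. All cells are eHAP, a haploid line derived from HAP1, with FNLS, a cytosine base editor. The series asked how mutations that go with PB resistance affect splicing. The deposited values used here are amounts of RNA per gene and do not show splicing.

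PB binds SF3b, the part of the U2 small nuclear ribonucleoprotein that holds the branch point of an intron, and stops spliceosome assembly before the first step of splicing. SF3B1 and PHF5A form the pocket for the compound. SUGP1 binds SF3B1 early in assembly, and its G-patch motif activates the RNA helicase DHX15. A transcript that keeps an intron or skips an exon can stay in the nucleus or be degraded by nonsense-mediated decay, whereas a gene without introns needs no splicing.

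The changed codon is shown because it defines the lines. In GENCODE release 29 (hg38) it lies in exon 12 of 14 of SUGP1 (transcript ENST00000247001.9), in coding sequence at chr19:19277853-19277855 on the minus strand. The reference coding strand at chr19:19277823-19277879 is given with the glutamate codon in capitals.
SUGP1 E554K codon: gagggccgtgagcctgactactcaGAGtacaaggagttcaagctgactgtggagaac
A G-to-A change in that codon gives lysine, and a cytosine base editor makes it by acting on the opposite strand. Gene counts do not show the edited base, so the genotype was taken from the labels.

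In units of 1000000 counts, library totals were 45.4, 60.9 and 31.6 with PB in lines 1, 2 and 3, and 48.2, 47.5 and 75.04 with DMSO. Between 22796 and 28333 genes reached 10 counts. Genes of the mitochondrial genome took 10.1, 14.3 and 17.9% of counts with PB and 11.1, 10.6 and 15.02% with DMSO. Haematopoietic markers, listed because HAP1 descends from a myeloid leukaemia, summed to 62.8 to 85.2 counts per 1000000 counts (CPM) with PB and 63.0 to 83.6 CPM with DMSO. Of the 18 markers 16 stayed under 1 CPM in all 6 libraries, PTPRC (CD45) among them at up to 0.301 CPM, HBG2 was at 0, and GATA2 gave most of the sum. Mesenchymal markers, led by VIM, summed to 449.6 to 668 CPM with PB and 471 to 703 CPM with DMSO. The epithelial sum was 43.7 to 164 CPM with PB and 46.5 to 139.7 CPM with DMSO, and the neural sum, led by SOX2, 959 to 1103 CPM with PB and 868 to 1209.6 CPM with DMSO.

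PB changed the RNA level of 3757 of 31444 tested genes in the SUGP1 E554K lines, 11.9% of them, at an adjusted p below 0.05 (edgeR quasi-likelihood test, Benjamini-Hochberg). Of these, 1274 rose (4.05% of tested genes), with a median log2 fold change of PB over DMSO of 0.46, and 2483 fell (7.90%), with a median of -0.61. Changes of at least 2-fold were seen in 267 genes that rose and 507 that fell. The change had the same sign in all 3 lines in 3730 of the 3757 genes, against 40.9% of all tested genes. All PB libraries lay on the same side of all DMSO libraries in 2607 of them, or 69.4%, against 18.0% of all tested genes (8.06% higher and 9.91% lower with PB). By line, medians were 0.46, 0.56 and 0.40 in lines 1, 2 and 3 over the genes that rose and -0.64, -0.61 and -0.57 over those that fell. The genes were called on these same libraries with a term for the line, which favours a like change in all lines. The shares and the medians by line are therefore a description. In bulk RNA, fewer cells of a kind and less RNA per cell cannot be told apart. The count was 1381 when the fit had no term for the line, 2159 without line 1 and 1732 without line 2.

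**Figure D1:**
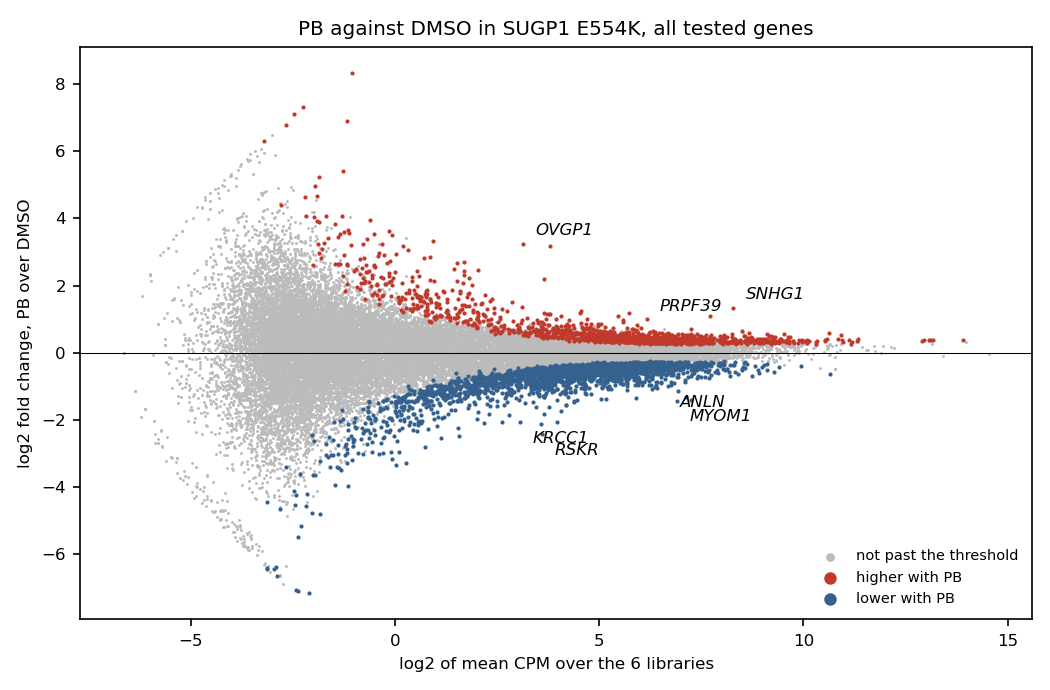
Log2 fold change of PB over DMSO (vertical axis) against log2 of the mean CPM over the 6 SUGP1 E554K libraries (horizontal axis), with 1 point per tested gene and the genes past the threshold in colour. The 1274 genes that rose and the 2483 that fell lie on both sides of 0 over the whole range of levels, with OVGP1 at 3.24 and RSKR at -2.42.

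Among coding genes that averaged 4 CPM or more and did not overlap between treatments, OVGP1, which encodes a secreted glycoprotein of the oviduct, rose most (ENSG00000085465, hg38 chromosome 1, 111414314 to 111427777). It had 7.39, 18.9 and 21.4 CPM with PB against 1.54, 1.39 and 1.70 CPM with DMSO in lines 1, 2 and 3. Every PB library was above every DMSO library, and line 1 rose least. The log2 fold change was 3.24 ± 0.28 (SE, adjusted p = 6.98e-09, edgeR), and the ratio of means was 10.3. CMYA5, a gene of striated muscle, had 4.35, 9.33 and 9.93 CPM with PB against 2.55, 3.12 and 1.81 CPM with DMSO, a log2 fold change of 1.61. GUCA1B, an activator of guanylate cyclase in photoreceptors, had 6.03, 7.61 and 8.39 CPM with PB against 3.46, 1.62 and 2.79 CPM with DMSO. Both lie at a few CPM and neither overlapped between treatments. Line 1 rose least in both. DCAF4L1, a gene with 1 exon, had 6.99, 12.3 and 13.1 CPM with PB against 3.37, 4.24 and 3.48 CPM with DMSO, a log2 fold change of 1.51 ± 0.23 (adjusted p = 4.22e-05). SRRM5, DHPS (the first enzyme of hypusine synthesis), MAP3K12 (a kinase of the axonal stress response) and DEXI completed the 8 largest rises, with log2 fold changes of 1.17 to 1.48, and all 4 overlap another tested gene. MAP3K12 had 29.1, 33.7 and 32.98 CPM with PB against 14.8, 14.1 and 13.2 CPM with DMSO, with PB above DMSO in every pair of libraries.

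The rises of lowest p, apart from OVGP1, were in TAF1D, PRPF39, NAA16, RRAGB and ZNF343. TAF1D, a subunit of the RNA polymerase I factor SL1 and a host of snoRNAs, had 252, 354 and 246 CPM with PB against 142, 139 and 118 CPM with DMSO. NAA16, a partner of an N-terminal acetyltransferase, had 58.8, 86.4 and 76.9 CPM with PB against 33.01, 29.96 and 34.9 CPM with DMSO. In both genes the treatments did not overlap and line 2 rose most. The log2 fold change was 1.08 ± 0.10 for TAF1D (adjusted p = 2.58e-08, edgeR) and 1.17 ± 0.12 for NAA16 (adjusted p = 1.10e-07). TAF1D overlaps CEP295, MED17 and other genes. RRAGB, a Rag GTPase of amino acid sensing, rose by 0.97 on the log2 scale and ZNF343, a zinc finger gene, by 0.87.

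Among non-coding genes the largest rises were in ENSG00000269688, RETREG1-AS1 and ENSG00000232611. ENSG00000269688 (hg38 chromosome 19, 38844729 to 38845499) is annotated inside HNRNPL on the same strand and had 21.1, 30.9 and 23.2 CPM with PB against 2.85, 3.76 and 1.94 CPM with DMSO. It was higher with PB in every line, by 3.17 ± 0.25 on the log2 scale (adjusted p = 9.78e-10, edgeR), and its reads cannot be told apart from unspliced HNRNPL RNA in gene counts. RETREG1-AS1, antisense to RETREG1, rose by 2.47 on the log2 scale, and the long intergenic RNA ENSG00000232611 by 2.19.

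RSKR, a gene related to ribosomal S6 kinases, had the largest fall among the coding genes above and the lowest p of all tested genes (ENSG00000167524, hg38 chromosome 17, 28607964 to 28614200). It had 4.53, 3.21 and 3.69 CPM with PB against 25.5, 18.3 and 17.4 CPM with DMSO. The highest PB value was far below the lowest DMSO value, and the log2 fold change was -2.42 ± 0.15 (adjusted p = 3.44e-11, edgeR). RSKR overlaps SPAG5-AS1. KRCC1 had 4.27, 2.43 and 3.05 CPM with PB against 15.2, 10.4 and 15.05 CPM with DMSO, a log2 fold change of -2.07. ZNF587B, a zinc finger gene, had 5.56, 6.33 and 6.005 CPM with PB against 27.2, 29.4 and 18.6 CPM with DMSO, and MAN2B2, a mannosidase of the lysosome, had 2.05, 2.13 and 2.99 CPM with PB against 10.6, 9.61 and 9.15 CPM with DMSO. Both had a log2 fold change of -2.05 with no overlap, and line 3 of ZNF587B was lowest under DMSO. ZNF653, which overlaps ECSIT, had 2.23, 1.42 and 1.34 CPM with PB against 5.33, 7.55 and 6.34 CPM with DMSO, again without overlap between treatments. KCNAB3 (a potassium channel subunit), YJEFN3 and HOMEZ (a homeobox gene) had log2 fold changes of -1.83 to -1.60. The non-coding genes that fell most were ENSG00000264112, TMCC1-DT and RBM26-AS1, with -2.14 to -1.87.

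The falls of lowest p, apart from RSKR, were in MYOM1, SIK2, RBBP6, SH3PXD2B and SSH1. MYOM1, a protein of the sarcomere M-band with up to 38 exons, had 61.1, 76.2 and 58.3 CPM with PB against 165, 189 and 167 CPM with DMSO. RBBP6, a ubiquitin ligase that binds the retinoblastoma protein, had 65.6, 86.1 and 98.8 CPM with PB against 231, 195 and 235 CPM with DMSO. Every PB library of both genes was below every DMSO library, and with PB RBBP6 was lowest in line 1. The log2 fold change was -1.42 ± 0.09 for MYOM1 (adjusted p = 3.78e-11, edgeR) and -1.41 ± 0.10 for RBBP6 (adjusted p = 1.80e-10). SIK2, a salt-inducible kinase, had 22.7, 18.2 and 18.5 CPM with PB against 55.1, 52.1 and 47.6 CPM with DMSO. SH3PXD2B, an adaptor of podosomes, and SSH1, a cofilin phosphatase, both had a log2 fold change of -1.36. Of the 32 genes named so far by size or p, 18 overlap another tested gene, whose reads they may share because the strand setting of the counts is not known. All 32 were picked among genes whose PB and DMSO values did not overlap, so that trait is no further support for them.

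**Figure D2:**
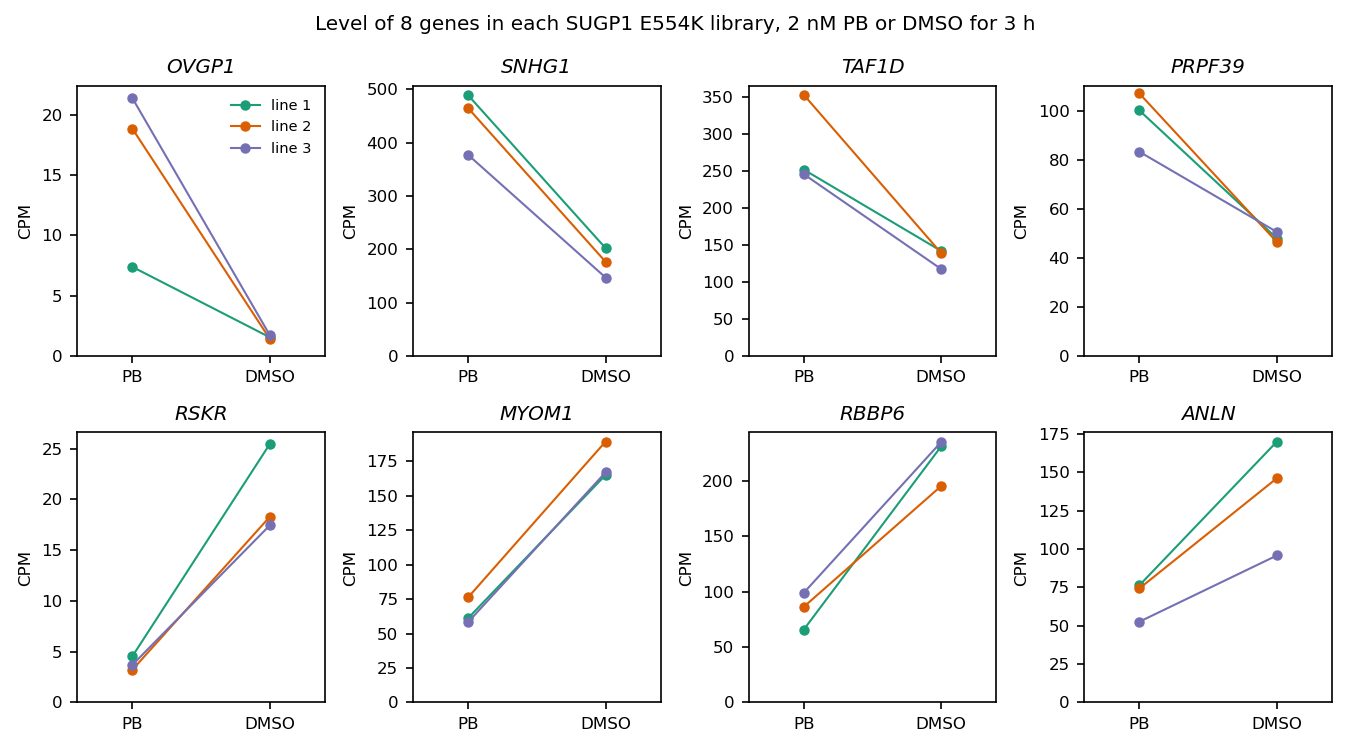
Level in CPM (vertical axes) of 8 genes in each SUGP1 E554K library, with PB at left and DMSO at right and a line joining the 2 libraries of each clone. OVGP1, SNHG1, TAF1D and PRPF39 were higher with PB in each clone, and RSKR, MYOM1, RBBP6 and ANLN were lower.

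The direction of change varied with the number of exons. The 12203 protein-coding genes that averaged 1 CPM or more were grouped by the largest exon number of any transcript. Of all of them 904 rose (7.41%) and 2127 fell (17.4%). Of 259 genes with 1 exon, 56 rose (21.6%) and 5 fell (1.93%), and the median log2 fold change was 0.24. Of 995 genes with 26 or more exons, 8 rose (0.804%) and 345 fell (34.7%), and the median was -0.25. Between these the median was 0.04 for 2 to 3 exons, 0.06 for 4 to 6, -0.02 for 7 to 10, -0.10 for 11 to 15 and -0.19 for 16 to 25. Medians in lines 1, 2 and 3 were 0.31, 0.22 and 0.12 for 1 exon and -0.33, -0.26 and -0.17 for 26 or more, so the ends stood in the same order in each line. Genes are not replicates, and this order was not tested.

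**Figure D3:**
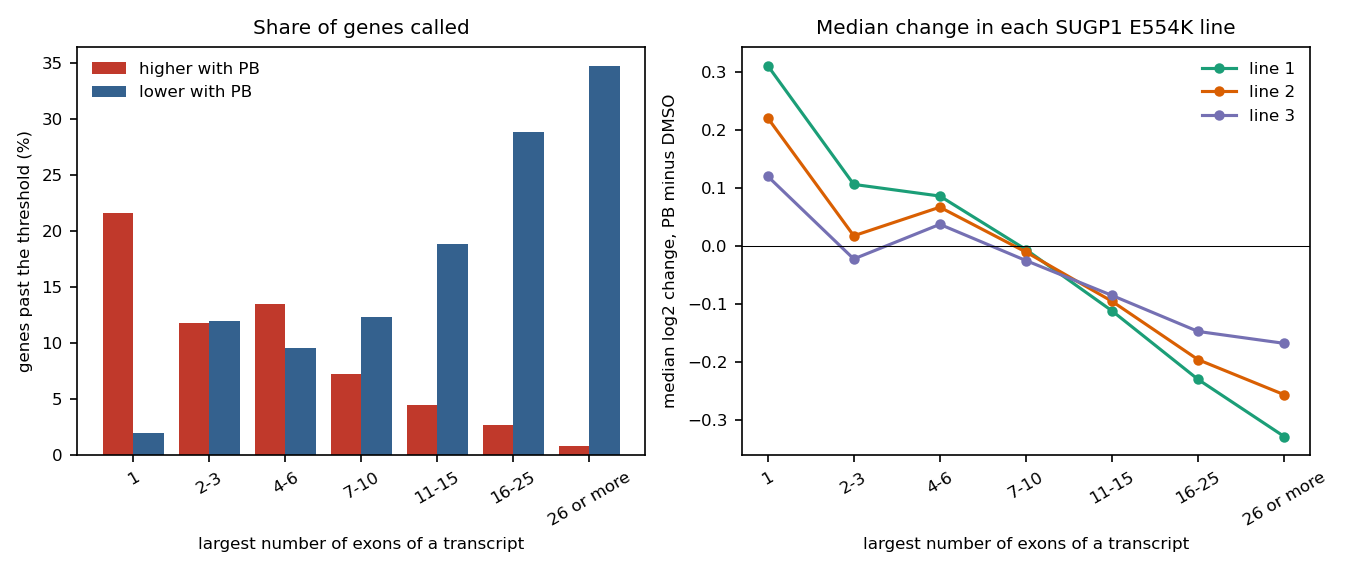
Protein-coding genes by the largest exon number of their transcripts (horizontal axes). The left panel gives the percentage of genes that rose or fell with PB, with 21.6% higher at 1 exon and 34.7% lower at 26 or more, and the right panel gives the median log2 change in each SUGP1 E554K line.

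Genes with many exons are also longer, so exon number was compared within classes of length. Among genes with a transcript of 2 to 4 kb, the median log2 fold change was 0.14 for 1 exon, 0.03 for 2 to 6, -0.05 for 7 to 15 and -0.12 for 16 or more. Among genes spanning 100 kb or more it was -0.03 for 2 to 6 exons, -0.12 for 7 to 15 and -0.25 for 16 or more. In this last class 467 of 1306 genes fell (35.8%) and 12 rose (0.919%). Transcript length also went with the change. From below 2 kb through 2 to 4 kb to 4 kb or more, the median was 0.17, 0.03 and -0.06 for 2 to 6 exons. It was 0.09, -0.05 and -0.15 for 7 to 15 exons and -0.03, -0.12 and -0.25 for 16 or more. For 1 exon it was 0.31, 0.14 and 0.24. The separate parts of exon number and length were not tested. The median change rose with transcript GC content in line 1 and fell with it in lines 2 and 3. Line 1 had a median of -0.19 below 40% GC and 0.06 at 60% or more, line 2 had -0.01 and -0.12, and line 3 had 0.00 and -0.16. The part of GC content in the values of single genes was not tested. Across 23 chromosomes the share of these genes that fell lay between 10.4 and 22.9%.

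By gene class, 917 of 16223 protein-coding genes rose (5.65%) and 2180 fell (13.4%), beside 4.05% and 7.90% of all tested genes. Of 2431 long intergenic RNAs 37 rose (1.52%) and 72 fell (2.96%), and of 2740 antisense genes 87 rose (3.18%) and 82 fell (2.99%). Of 129 snoRNA genes, which lie in introns of host genes and can share their reads, 8 rose (6.20%) and none fell. Of 5123 processed pseudogenes, intronless copies of mRNAs, 113 rose (2.21%) and 18 fell (0.351%). Their median change was 0.90 in line 1, 0.41 in line 2 and -0.14 in line 3, so the lines went different ways. Processed pseudogenes took 2.17, 2.16 and 2.12% of all counts with PB and 1.32, 1.81 and 2.21% with DMSO, and their near-identical parents make these counts uncertain.

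Genes of the splicing machinery were counted by lists, to be read beside the 4.05% and 7.90% of all tested genes that rose and fell and a median over all tested genes of 0.02. Of the 12203 coding genes at 1 CPM or more, 7.41% rose and 17.4% fell, with a median of -0.07. SUGP1 itself had 67.7, 58.2 and 61.1 CPM with PB against 62.8, 56.2 and 65.9 CPM with DMSO. The treatments overlapped, and the log2 fold change was 0.02 ± 0.10 (adjusted p = 0.954, edgeR). SUGP1 overlaps MAU2 on the opposite strand. DHX15 had a log2 fold change of 0.09 ± 0.08 (adjusted p = 0.577). Of 22 genes for SUGP1, DHX15 and G-patch proteins, RBM5 fell and NKRF and ZGPAT rose. RBM5 overlaps RBM6. NKRF lost its call when any 1 of the lines was left out, ZGPAT without line 1 or 2, and both without a term for the line.

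Of 10 SF3b and SF3a subunits 2 rose and none fell, with a median log2 fold change of 0.26. SF3B1, the largest subunit, had 584, 560.2 and 479 CPM with PB against 469, 434 and 372 CPM with DMSO. The treatments did not overlap, although PB in line 3 was close to DMSO in line 1, and the log2 fold change was 0.35 ± 0.09 (adjusted p = 0.00603, edgeR). SF3B6, which lies near the branch point adenosine, had a log2 fold change of 0.39. Neither passed without line 2 or without a term for the line, and SF3B6 was also lost without line 3. PHF5A had 0.30 ± 0.10 (adjusted p = 0.0506), just short of the threshold.

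Of 20 factors that recognise the branch point or bring in the U2 particle, 5 rose and 4 fell. DDX42, a helicase that binds SF3B1, had 142, 168 and 152 CPM with PB against 259, 269 and 248 CPM with DMSO. It was lower with PB in every line, by a log2 fold change of -0.75 ± 0.08 (adjusted p = 3.77e-07, edgeR), and it overlaps CCDC47. SF1, the branch point binding protein, had 435, 408 and 344 CPM with PB against 547, 583 and 543 CPM with DMSO, and U2SURP and RBM5 each fell by 0.58 on the log2 scale. In the other direction DDX39B, a helicase needed when the U2 particle joins, had 137, 187 and 141 CPM with PB against 97.7, 113 and 99.9 CPM with DMSO, a log2 fold change of 0.57 ± 0.09 (adjusted p = 0.000135). U2AF1, U2AF2, SNRPB2 and U2AF1L4, parts of the 3' splice site factor U2AF, its relative and the U2 particle, rose by 0.38 to 0.65. U2AF1 overlapped between treatments, and its line 1 was high under both.

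Of 16 U1 particle and second-step factors 5 rose and 1 fell, with a median of 0.23. PRPF39, which acts with the U1 particle at the 5' splice site, had 100.1, 107 and 83.3 CPM with PB against 47.9, 46.4 and 50.5 CPM with DMSO. No library overlapped and line 3 rose least, and the log2 fold change was 1.00 ± 0.10 (adjusted p = 5.07e-08, edgeR). PRPF39 overlaps FKBP3 and a pair of snoRNA genes. SNRPA, a U1 protein, had 215, 215 and 229 CPM with PB against 154, 159.7 and 184 CPM with DMSO, a log2 fold change of 0.41. PRPF18, LUC7L3 and SNRPC had 0.33 to 0.62. LUC7L3 lost its call without line 2 or a term for the line, and PRPF18 without line 2 or 3. CDC40, a second-step factor, fell by 0.40.

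Of 28 SR proteins and their kinases 14 rose and 2 fell, with a median of 0.24. In 17 the treatments did not overlap, against 18.0% of all tested genes. Those that fell were the kinases SRPK1 and SRPK2, with -0.32 to -0.29. SRSF7, which activates splice sites through exonic enhancers, had 435, 467 and 415 CPM with PB against 311, 326 and 301 CPM with DMSO. TRA2B, which acts in the same way, had 489.5, 506 and 461 CPM with PB against 382, 372 and 338 CPM with DMSO. Both were higher with PB in each library, with log2 fold changes of 0.49 ± 0.09 (adjusted p = 0.000327, edgeR) and 0.42 ± 0.08 (adjusted p = 0.000672). SREK1, TRA2A, SRSF1, SRSF2, SRSF3 and SRSF10 rose by 0.46 to 0.54. By line, the median of the list was 0.21, 0.37 and 0.20 in lines 1, 2 and 3.

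Of 27 hnRNP genes, whose proteins bind nascent RNA and often repress splice sites, 9 rose and none fell, with a median of 0.16. HNRNPDL had 874, 952 and 909 CPM with PB against 658, 629.8 and 711 CPM with DMSO, a log2 fold change of 0.45 ± 0.09 (adjusted p = 0.000592, edgeR). HNRNPR, HNRNPC and PCBP1 had 0.34 to 0.51, of which HNRNPR and HNRNPC were lost without line 2 or 3 and PCBP1 without line 1 or a term for the line. Many SR and hnRNP genes carry exons that send their own mRNA to nonsense-mediated decay, and gene counts do not separate such isoforms. Of 18 UPF and SMG decay factors SMG6, UPF2 and NBAS fell and MAGOH rose. UPF2 was lost without line 1, NBAS and MAGOH without line 1 or 2, and all 3 without a term for the line.

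Of 22 snoRNA host genes 11 rose and 1, SNHG4, fell, with a median log2 fold change of 0.34. These genes hold snoRNAs in their introns, and the spliced RNA of many is a known target of nonsense-mediated decay. SNHG1 (ENSG00000255717, hg38 chromosome 11, 62851988 to 62855914) had 489, 465 and 377 CPM with PB against 202, 177 and 147 CPM with DMSO. Each line rose by a similar factor, and the log2 fold change was 1.34 ± 0.09 (adjusted p = 8.31e-11, edgeR). SNHG5 had 61.6, 65.4 and 52.97 CPM with PB against 30.02, 29.9 and 24.8 CPM with DMSO, a log2 fold change of 1.09 (adjusted p = 4.36e-08). SNHG17, SNHG6, ZFAS1, SNHG30 and SNHG15 rose by 0.56 to 0.87, and SNHG9, SNHG3 and GAS5 by 0.29 to 0.46. SNHG4, with -0.37, overlaps MATR3.

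**Figure D4:**
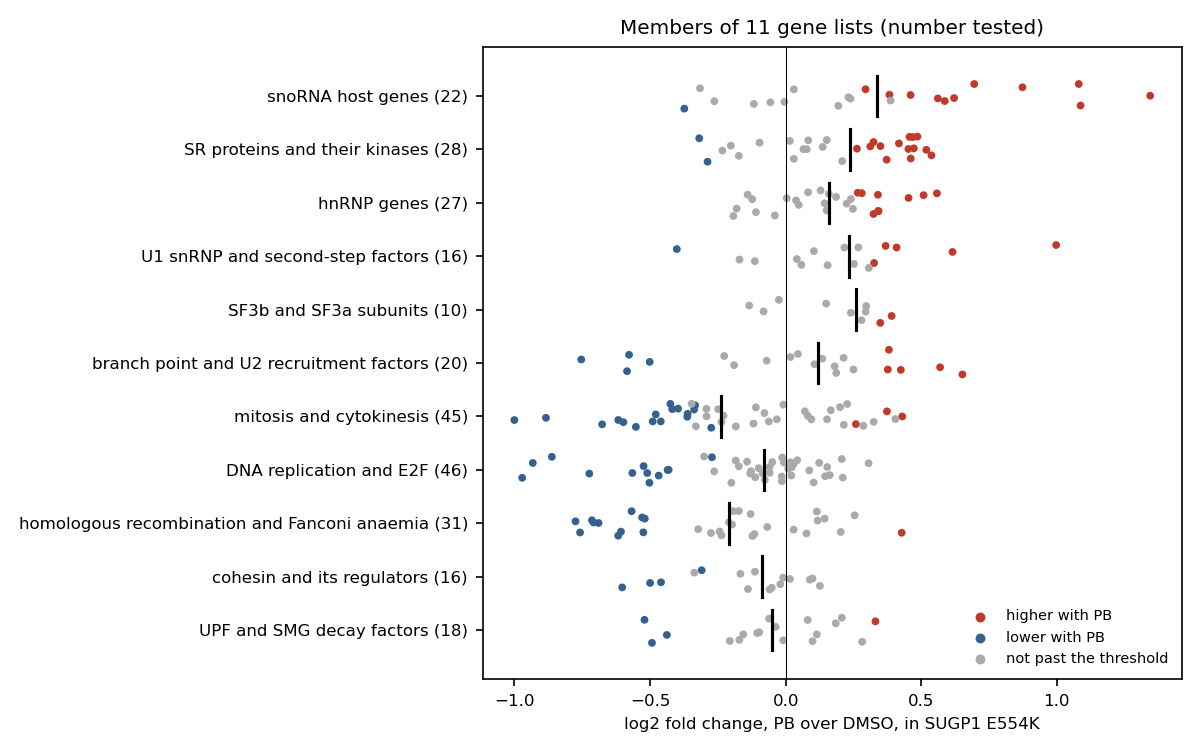
Log2 fold change of PB over DMSO in SUGP1 E554K (horizontal axis) for each tested member of 11 gene lists, with the number tested in brackets and a black bar at the list median. snoRNA host genes (median 0.34) and SR proteins (0.24) lie mostly right of 0, and mitosis genes (-0.24) mostly left.

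Of 45 mitosis and cytokinesis genes 17 fell (37.8%) and 3 rose (6.67%), with a median of -0.24, against 17.4% lower, 7.41% higher and a median of -0.07 for the 12203 coding genes. The list was not matched for exon number. Of coding genes with 16 to 25 exons 28.9% fell, with a median of -0.19. With 26 or more exons 34.7% fell, with a median of -0.25. ANLN, which organises the contractile ring (ENSG00000011426, hg38 chromosome 7, 36389806 to 36453791), had 76.3, 74.3 and 52.6 CPM with PB against 170.1, 146 and 95.8 CPM with DMSO. Line 3 was low under both treatments and no PB library reached the lowest DMSO library. The log2 fold change was -1.0 ± 0.09 (adjusted p = 1.03e-08, edgeR). TOP2A, the DNA topoisomerase of dividing cells, had 384, 393 and 350.2 CPM with PB against 663, 600.3 and 479.5 CPM with DMSO. NDC80, of the kinetochore, had 67.9, 132 and 95.5 CPM with PB against 143, 202 and 187 CPM with DMSO, and BUB1B, of the spindle checkpoint, fell by 0.55 on the log2 scale. NDC80 was lower with PB in each line, and both NDC80 and BUB1B were lost without a term for the line. PTTG1, CENPA and BIRC5 rose by 0.26 to 0.43. By line the median of the list was -0.29, -0.20 and -0.17.

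Of 46 genes for DNA replication and E2F targets, 12 fell (26.1%) and 0 rose. The median of -0.08 was near the -0.07 of the 12203 coding genes, of which 17.4% fell. RFC1, the large subunit of the clamp loader, had 51.7, 64.8 and 53.3 CPM with PB against 111, 124 and 97.9 CPM with DMSO. CDC6, which loads the replicative helicase, had 62.2, 72.9 and 57.9 CPM with PB against 115, 125 and 110.1 CPM with DMSO. Neither overlapped between treatments, and the log2 fold change was -0.97 ± 0.09 for RFC1 (adjusted p = 1.03e-08, edgeR) and -0.86 ± 0.09 for CDC6 (adjusted p = 2.53e-07). POLD3, a subunit of DNA polymerase delta, fell by 0.93 and ORC2, of the origin recognition complex, by 0.72.

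Of 31 homologous recombination and Fanconi anaemia genes 11 fell (35.5%) and 1 rose (3.23%), with a median of -0.21, beside the same 17.4%, 7.41% and -0.07. This list was not matched for exon number. BRCA1 had 70.3, 74.8 and 62.5 CPM with PB against 122, 121 and 97.5 CPM with DMSO. It did not overlap between treatments, and the log2 fold change was -0.71 ± 0.09 (adjusted p = 2.51e-06, edgeR). RBBP8, which starts end resection, fell by 0.61. BLM, a helicase, and BRCA2 fell by 0.71 and 0.62, and both were lost without a term for the line. EXO1, an exonuclease of the same pathway, rose by 0.43. Of 16 cohesin genes MAU2, PDS5B, ESCO2 and PDS5A fell (25%), by 0.31 to 0.60. MAU2 was lost without line 2, PDS5B and ESCO2 without line 1, and PDS5A without line 1 or 2. ESCO2 and PDS5A were also lost without a term for the line.

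Of 23 genes known to use cryptic 3' splice sites in SF3B1-mutant cancers 6 fell (26.1%) and 2 rose (8.70%), with a median of -0.04. Of the 12203 coding genes 17.4% fell and 7.41% rose, with a median of -0.07. TTI1, a partner of PIKK kinases, had 36.9, 37.7 and 31.3 CPM with PB against 47.9, 49.6 and 43.5 CPM with DMSO, a log2 fold change of -0.41. Its treatments did not overlap. DVL2, ENOSF1 and DYNLL1 were each lost without a term for the line. DVL2 was also lost without line 2 or 3, ENOSF1 without line 1 and DYNLL1 without line 1 or 2.

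Of 21 tested genes of the BCL2 family and caspase inhibitors 2 rose (9.52%) and 4 fell (19.0%). Of the 12203 coding genes 7.41% rose and 17.4% fell. BIRC3, an inhibitor of apoptosis with ubiquitin ligase activity, had 1.63, 1.46 and 2.99 CPM with PB against 0.274, 0.312 and 0.0924 CPM with DMSO. It is a low gene whose treatments did not overlap, and the log2 fold change was 3.17 ± 0.58 (adjusted p = 0.000372, edgeR). BCL2L2, a survival factor that overlaps HOMEZ, had 17.95, 19.3 and 10.2 CPM with PB against 23.4, 28.2 and 20.97 CPM with DMSO, a log2 fold change of -0.65. CFLAR, BMF and BIRC6 fell by 0.43 to 0.63. CFLAR was lost without line 1, BMF without line 2, and both without a term for the line.

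Stress and signalling lists are again set beside the 4.05% of tested genes that rose and the 7.90% that fell. Among the 12203 coding genes at 1 CPM or more, 7.41% rose and 17.4% fell. Of 25 p53 targets CCNG1 rose (4%) and BTG2, SESN2 and XPC fell (12%), by 0.71 to 0.88, with BTG2 and CCNG1 lost without a term for the line and CCNG1 also without line 2. Of 23 ATF4 targets DDIT3 rose by 0.66 (4.35% of the list), and SLC7A11, SESN2, VLDLR and CTH fell (17.4%). SLC7A11, the cystine transporter, had 20.7, 34.3 and 22.4 CPM with PB against 45.1, 56.5 and 37.8 CPM with DMSO, and no PB library reached a DMSO library. Its log2 fold change was -0.87 ± 0.11 (adjusted p = 2.51e-06, edgeR). VLDLR was lost without line 2 or a term for the line, and CTH without line 1. Of 34 immediate early genes KLF6, CCN1 and NR4A2 rose (8.82%) and ZFP36 fell (2.94%), and all 4 were lost without a term for the line. CCN1 was also lost without line 1, ZFP36 without line 2 and NR4A2 without line 2 or 3. Of 23 heat shock genes HSPE1 rose, and of 24 cholesterol synthesis genes MSMO1 and FDFT1 rose, and these 3 were each lost without line 2 or a term for the line. HSPE1 was also lost without line 3, MSMO1 without line 1 and FDFT1 without either. MVK, mevalonate kinase, had 11.3, 12.5 and 11.8 CPM with PB against 20.1, 23.6 and 19.9 CPM with DMSO, with no overlap.

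Of 30 tested interferon response genes IFI35 and IRF9 rose (6.67%) and IFI27, IFITM3 and STAT2 fell (10%). The shares were 4.05% and 7.90% over all tested genes and 7.41% and 17.4% over the 12203 coding genes. IFI35, an interferon-induced protein, had 4.69, 5.72 and 4.29 CPM with PB against 0.696, 1.02 and 0.607 CPM with DMSO. It was several-fold higher in each line, and the log2 fold change was 2.68 ± 0.34 (adjusted p = 2.97e-06, edgeR). IFITM3 had 0.112, 0 and 0.101 CPM with PB against 0.527, 0.208 and 0.911 CPM with DMSO and so stayed under 1 CPM. Its call was lost without line 2 or 3, without a term for the line and with the 6 libraries alone. That of IFI27 was lost without line 1. That of STAT2 was lost when any 1 of the lines was left out, without a term for the line, and with other scaling, no low-count filter or the 6 libraries alone. Among cell type markers CD14 rose, the only 1 called of 13 tested haematopoietic markers (7.69%). PDGFRA fell, the only 1 called of 13 mesenchymal markers (7.69%), and NES fell, the only 1 of 11 neural markers (9.09%). Of 9 epithelial markers 0 were called. CD14 had 0.893, 0.728 and 0.939 CPM with PB against 0.0211, 0.478 and 0.185 CPM with DMSO, and all 3 markers were lost without line 1 or a term for the line. CD14 was also lost without line 3, with no low-count filter and with the 6 libraries alone. NES was also lost without line 2 or 3 and with other scaling.

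Of 13 mRNAs of the mitochondrial genome 9 rose (69.2%) and none fell, with a median of 0.38. Over all tested genes 4.05% rose and 7.90% fell. The medians by line were 0.05, 0.72 and 0.36. In none of the 13 did the treatments separate, against 18.0% of all tested genes in which they did. MT-ND3, a subunit of complex I, had 1422, 2272 and 3064 CPM with PB against 1158, 1148 and 2466 CPM with DMSO. DMSO in line 3 was above PB in both other lines. Its call was lost without line 2 or a term for the line, as were those of MT-ATP8, MT-CO3 and MT-ND4, and the last 2 also without line 3.

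The response was then set beside that of the other genotypes. Over the 1274 genes that rose in SUGP1 E554K, a choice made on these lines, the median log2 fold change was 0.33 in SUGP1 G603N, 0.02 in PHF5A 2xTL, 0.11 in SF3B1 T1080I and 0.32 in control. Over the 2483 that fell it was -0.49, -0.10, -0.06 and -0.53 in the same genotypes. A second choice used a fit of the 6 control libraries alone, which share no library with SUGP1 E554K. The 1237 genes higher in that fit had medians of 0.45, 0.53 and 0.45 in lines 1, 2 and 3 of SUGP1 E554K and of 0.55 in control. The 2405 genes lower in it had medians of -0.57, -0.51 and -0.53 in the lines and of -0.60 in control. The control libraries chose these genes, so the control medians are not on an equal footing. They are also fitted fold changes, and those of the lines are differences in log2 CPM. These gene sets had medians of 0.04 and -0.12 in PHF5A 2xTL and of 0.11 and -0.06 in SF3B1 T1080I. In lines 1, 2 and 3, 88.3, 93.0 and 92.5% of the higher genes also went up, against 49.6, 50.6 and 46.5% of all tested genes. When SUGP1 E554K was likewise fitted alone, 1670 genes rose (6.87% of 24298 tested) and 2153 fell (8.86%). Of those, 721 also rose in control, 43.2% of the SUGP1 E554K list and 58.3% of the control list. In the other direction 1500 also fell, 69.7% and 62.4% of the lists, and none was called in opposite directions.

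Tested directly, 0 genes were called different in PB response between SUGP1 E554K and control (0% of 31444 genes at an adjusted p below 0.05, edgeR), with 950 at an unadjusted p below 0.05. DESeq2 called 0, with 1321 unadjusted. With no low-count filter edgeR called 5, all of them also tested above, and each with the more negative response in SUGP1 E554K: DPYSL2 (-0.74), MAP1B (-0.66), ZNF154 (-1.99), NF2 (-0.75) and MDM4 (-0.70), named after their values were seen. The median standard error of the difference was 0.165 on the log2 scale for genes at 4 CPM or more. OVGP1 differed by -0.22 (approximate 95% interval -0.95 to 0.51) and RSKR by -0.18 (-0.58 to 0.22). The pseudogene GOLGA2P5, of lowest p among positive differences, had 5.05, 5.97 and 5.07 CPM with PB against 16.4, 15.5 and 17.2 CPM with DMSO in SUGP1 E554K. In control it had 1.53, 3.03 and 3.92 CPM with PB against 12.3, 14.7 and 20.8 CPM with DMSO. It was lower with PB in both, and the difference was 0.93 (0.50 to 1.36, unadjusted p = 0.000231, adjusted p = 1, edgeR). TMEM268, a membrane protein, had 13.3, 14.7 and 13.7 CPM with PB against 11.2, 11.2 and 11.1 CPM with DMSO in SUGP1 E554K. In control it had 12.2, 10.9 and 11.4 CPM with PB against 15.1, 14.2 and 14.97 CPM with DMSO, which is the opposite direction, and the difference was 0.68 (unadjusted p = 0.000509, adjusted p = 1, edgeR). HMBOX1, a telomere-binding homeobox protein, differed by -0.68. PCDHGB7, which shares exons with its gene cluster, had a difference of -2.21, and KCNMB2 and CST7 stayed under 1 CPM in SUGP1 E554K.

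Against the other SUGP1 substitution, G603N, 0 genes were called (0%, edgeR, adjusted p below 0.05), with 1202 at an unadjusted p below 0.05, and DESeq2 called 0 with 1823. The median standard error was 0.165. FGFR3, a growth factor receptor, had 24.5, 32.2 and 19.7 CPM with PB against 31.1, 50.4 and 32.7 CPM with DMSO in SUGP1 E554K. In SUGP1 G603N it had 31.6, 44.5 and 51.6 CPM with PB against 28.1, 41.6 and 52.6 CPM with DMSO. PB was lower than DMSO in each SUGP1 E554K line and close to it in SUGP1 G603N, with a difference of -0.65 (-0.98 to -0.32, unadjusted p = 0.000598, adjusted p = 1, edgeR). B3GNT4, which overlaps DIABLO, differed by -1.99. The others of lowest p, MNX1-AS2, ENSG00000224969, ENSG00000273691 and OR9M1P, stayed under 2 CPM in SUGP1 E554K. A p above the threshold does not show that the genotypes respond alike.

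Against the mean of the genotypes changed in the PB pocket, PHF5A 2xTL and SF3B1 T1080I, 1095 genes differed (3.48%, edgeR, adjusted p below 0.05). Of these, 229 had the more positive response in SUGP1 E554K (0.728%) and 866 the more negative (2.75%). The median standard error was 0.143. OVGP1 had 1.59 ± 0.305 CPM with PB and 1.23 ± 0.153 CPM with DMSO in PHF5A 2xTL and 1.92 ± 0.397 CPM with PB and 1.24 ± 0.494 CPM with DMSO in SF3B1 T1080I (mean ± SD, n = 3 each). The difference in its log2 response was 2.72 (2.07 to 3.37, adjusted p = 1.14e-05, edgeR). SNHG1 had 181 ± 24.1 CPM with PB and 177 ± 28.6 CPM with DMSO in PHF5A 2xTL and 203 ± 20.9 CPM with PB and 169 ± 19.8 CPM with DMSO in SF3B1 T1080I. Its difference was 1.19 (0.98 to 1.41, adjusted p = 1.35e-07, edgeR). RSKR had 17.2 ± 4.91 CPM with PB and 20.7 ± 5.70 CPM with DMSO in PHF5A 2xTL and 15.5 ± 0.824 CPM with PB and 18.5 ± 1.46 CPM with DMSO in SF3B1 T1080I. Its difference was -2.15 (-2.50 to -1.81, adjusted p = 3.05e-08, edgeR). PRPF39, which had a log2 fold change of 0.58 in SF3B1 T1080I, also passed (adjusted p = 0.00364, edgeR). These genes were named for their PB response in the same SUGP1 E554K libraries, which form one side of this difference, so their values here are a description. Of the 22 snoRNA host genes 7 passed, and of the 45 mitosis genes 9. The count of 1095 was 174 without a term for the line, and 601 or 486 without line 1 or line 2 of SUGP1 E554K.

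**Figure D5:**
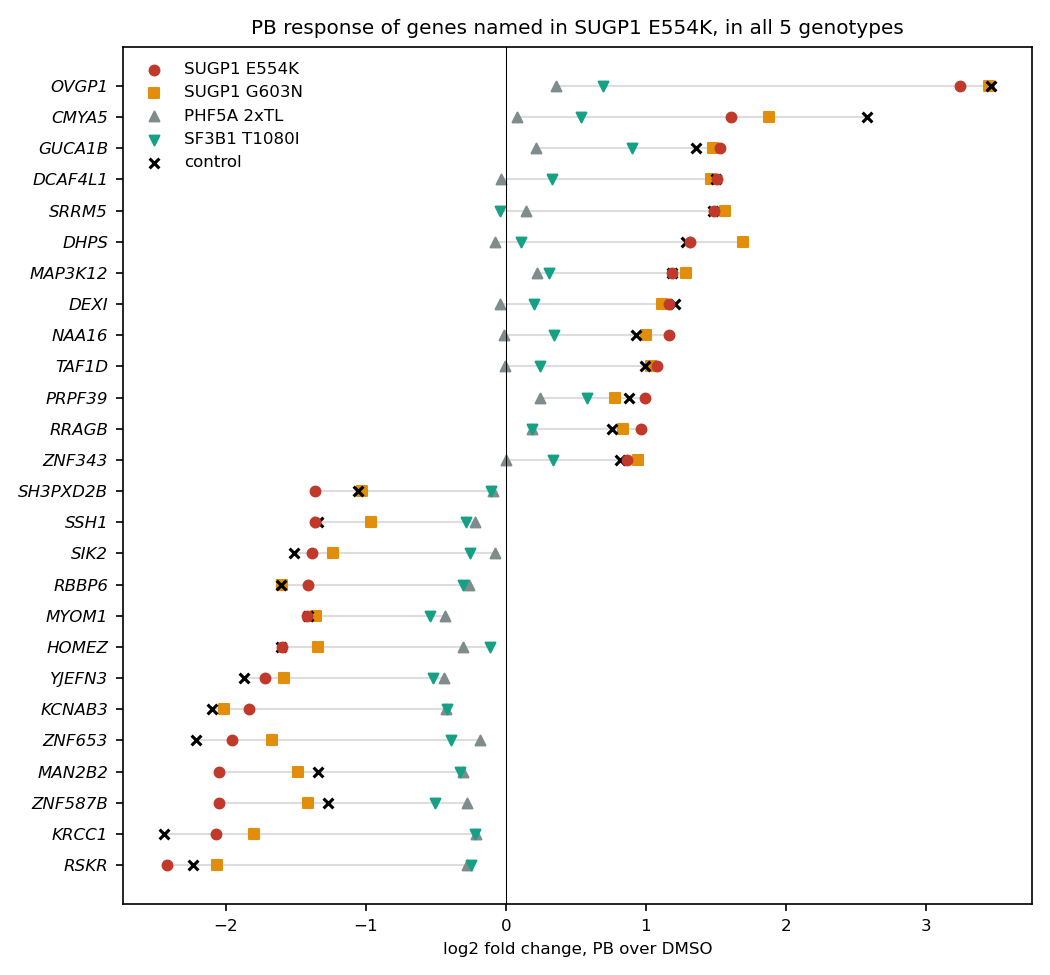
Log2 fold change of PB over DMSO (horizontal axis) for the 26 coding genes named by size or p in SUGP1 E554K, in each of the 5 genotypes. SUGP1 E554K, SUGP1 G603N and control lie away from 0, with OVGP1 at 3.24, 3.45 and 3.46, and PHF5A 2xTL and SF3B1 T1080I lie nearer to 0.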

How the data were processed

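The authors deposited a table of estimated counts for 61487 genes in 30 libraries, unnormalized, and 65.5% of its nonzero values are fractional. Per the labels' protocols, polyadenylated RNA went into CORALL libraries, read as paired 150-base ends. The submitters' processing notes name UMI-tools, STAR, SAMtools 1.10 and hg38. Counting program, annotation and strand setting: not given in the sources used here. Gene classes, exons and coordinates came from GENCODE release 29 (58312 identifiers matched).

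The estimated counts were rounded and tested with edgeR 4.0.16 (R 4.3.3) after filterByExpr over the 10 groups and TMM scaling. A single fit of all 30 libraries held 15 line terms (for control, its replicate number) and a PB effect per genotype, so the groups share 1 estimate of the spread per gene. P-values were adjusted over all 31444 genes, and standard errors are approximate. CPM are counts per 1000000 of the TMM-scaled library, and changes per line are differences in log2 CPM with a prior count of 2. The procedure was tested on simulated counts with known changes. For PB in SUGP1 E554K it called 34% of log2 changes of 0.5, 72% of 1 and 100% of 2. For the difference to control it called 10%, 58% and 92% of the same changes. In the simulation 29891 of 30091 genes were unchanged, and the changed ones all averaged 1 CPM or more. Its lines differed in level but not in their response to PB. The shares therefore do not carry over directly to the real comparisons, which hold more low genes and many more changes. Depth, 31.6 to 75.04 in units of 1000000 counts, limits precision mainly for low genes.

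Labels tie same-numbered edited libraries to a clone. Deviations of paired SUGP1 E554K libraries from their group means correlated at 0.649 to 0.773 over 11998 genes, a description. Alternatives were no block, other scaling and filters, DESeq2 1.42.0, the compared libraries alone and each line left out. The members, the 25 gene lists and the naming rule were chosen with earlier results of these data known. Named were the edited and partner genes, the 8 largest changes and 6 lowest p per direction among called coding genes with at least 4 CPM and no overlap, the 3 largest of other classes, up to 4 members per list by p, and the leading genes of each difference. Further list members were named after their values were seen.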

Additional observations from a re-analysis of the deposited data

Results flagged for a closer look

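The PB response of SUGP1 E554K differed from the mean of PHF5A 2xTL and SF3B1 T1080I in 1095 genes, tested as a contrast of PB effects in edgeR. The largest positive differences in log2 response, for genes of at least 4 CPM, were 2.72 for OVGP1, 2.12 for ENSG00000269688, 2.07 for RETREG1-AS1, 1.70 for ENSG00000253667 and 1.68 for ENSG00000232611. The largest negative ones were -2.15 for RSKR, -1.85 for KRCC1, -1.73 for MAN2B2, -1.67 for ZNF653 and -1.66 for ZNF587B. ENSG00000253667 is annotated as a processed pseudogene and overlaps TCEA1, so its counts are uncertain. The mean does not show each genotype. ENSG00000269688 had a log2 fold change of 1.51 in SF3B1 T1080I and 0.59 in PHF5A 2xTL, and ENSG00000232611 had 0.79 and 0.25.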

How the results depend on the processing

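For PB in SUGP1 E554K the count of 3757 genes was 1381 (391 higher, 990 lower) without the replicate block, of which 1372 were also called with it, and 1732 to 2718 with a line left out. It was 4648 (2089 higher, 2559 lower) for genes of at least 4 CPM and 3823 (1670 higher, 2153 lower) with these 6 libraries alone, and lay between 3487 and 4691 with other scaling, no low-count filter or DESeq2. For the difference to PHF5A 2xTL and SF3B1 T1080I the count of 1095 was 174 without the replicate block, 2225 for genes of at least 4 CPM, 1801 with DESeq2, 2190 with the compared libraries alone and 486 to 757 with a SUGP1 E554K line left out. For the difference to control it was 0 except with no low-count filter, which gave 5 genes. For SUGP1 G603N it was 0 in every alternative run. The cause of these shifts was not tested. All 285 alternative values of the 32 genes named by size or p passed in the same direction. These genes were picked for large or low-p changes in the same libraries that the alternatives reuse, so this does not stand for other genes. Of 147 results for named genes 126 were called, of which 43 lost their call without the replicate block, and none reversed.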
